A study of Homo sapiens with 4 samples.

Results

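Small nucleolar RNAs (snoRNAs) and small Cajal body RNAs (scaRNAs) were followed across 4 RNA-seq libraries of MCF10A, a human breast epithelial cell line that is immortal but does not form tumours. Members were the gene symbols starting with SNORA, SNORD or SCARNA that reached 5 FPKM or more (a fragment count corrected for RNA length and sequencing depth) in at least 1 library. That rule kept 160 of the 354 such symbols listed, out of 25317 gene symbols in all. By class, 69 of 99 H/ACA snoRNAs (SNORA), 76 of 233 box C/D snoRNAs (SNORD) and 15 of 22 scaRNAs were kept. The rule used the expression values themselves, so the values below describe these libraries and carry no test. Just outside the threshold lay SNORA41, with a highest value of 4.68 FPKM in the Ovol2 library, and SNORA51, with 4.88 FPKM in the empty vector library. Just inside lay SNORD87, at 5.04 FPKM, and SNORD38B, at 5.09 FPKM, both in the Snail library.

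The 4 groups were cells infected with a pHIV-ZsGreen lentivirus that carried no insert (the empty vector control), Zeb1, Snail or Ovol2. Zeb1 and Snail are transcription factors that induce an epithelial-to-mesenchymal transition, and Ovol2 is one that induces the reverse transition. In every group the green fluorescent cells were sorted 6 days after infection. Each group held 1 library, so no spread between replicates exists and no difference below has a replicate check. Each delivered gene had its highest level where it was delivered: ZEB1 at 17.3 FPKM with Zeb1 against 0.536 or less in the other libraries, SNAI1 at 99.7 FPKM against 0.725 or less, and OVOL2 at 78.3 FPKM against 6.32 or less. The basal epithelial keratin KRT5 was present throughout, from 215 FPKM with Ovol2 to 2929 FPKM with the empty vector, and the leukocyte gene PTPRC did not exceed 0.0177 FPKM.

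SnoRNAs are short RNAs of the nucleolus that guide chemical modification of ribosomal RNA. Box C/D snoRNAs pair with the target and bring fibrillarin to methylate a ribose, and H/ACA snoRNAs bring dyskerin to convert a uridine to pseudouridine. ScaRNAs carry the same boxes and guide the same modifications on spliceosomal small nuclear RNAs in Cajal bodies. In human cells most of them are cut out of introns of host genes, many of which encode ribosomal or translation proteins, while other hosts, such as GAS5, encode no protein. A read from a host intron or from a retained intron counts toward the small RNA as well, so the values below are those of the annotated interval and not of a purified small RNA.

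The sequences that the results turn on are given 5′ to 3′ in lower case from the GENCODE 29 transcripts, with positions in GRCh38, while the deposited values rest on hg19 and carry no coordinates. In the H/ACA RNAs the capitals mark the ACA found within the last 8 bases. In the C/D RNAs they mark a C box written TGATGA within the first 20 bases and a D box written CTGA within the last 15 bases, where these exact letters occur. The first pair is shown because both RNAs lie in introns of EIF4A2, a translation initiation factor gene, and differed in how far their ratios lay from those of that host. SNORA63 lies at chr3:186787300-186787431 on the plus strand and SNORD2 at chr3:186784796-186784864 on the plus strand.
SNORA63: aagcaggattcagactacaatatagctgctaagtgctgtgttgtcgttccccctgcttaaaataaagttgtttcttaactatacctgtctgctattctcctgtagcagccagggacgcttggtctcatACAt
SNORD2: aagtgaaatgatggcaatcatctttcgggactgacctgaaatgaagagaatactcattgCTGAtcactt

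SNORA80A and SNORA80B are shown because they are near copies in different hosts. SNORA80A lies at chr21:32377187-32377322 on the minus strand, in an intron of URB1, and SNORA80B at chr2:10446714-10446849 on the minus strand, in an intron of ODC1. Aligned end to end, they were identical at 91.9% of positions, with 11 mismatches.
SNORA80A: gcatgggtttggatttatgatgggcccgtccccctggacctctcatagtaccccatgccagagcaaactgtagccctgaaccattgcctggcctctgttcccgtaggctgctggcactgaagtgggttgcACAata
SNORA80B: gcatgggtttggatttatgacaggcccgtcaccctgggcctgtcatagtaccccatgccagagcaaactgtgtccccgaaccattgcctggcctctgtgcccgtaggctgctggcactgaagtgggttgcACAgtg

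SNORD17 is shown as the C/D member with the highest mean level. It lies at chr20:17962710-17962946 on the minus strand, in an intron of SNX5, and is the longest C/D member at 237 bases. SNORD22, at chr11:62852910-62853035 on the minus strand, and SNORD27, at chr11:62855012-62855083 on the minus strand, are shown as a long and a short C/D RNA of the same host, SNHG1.
SNORD17: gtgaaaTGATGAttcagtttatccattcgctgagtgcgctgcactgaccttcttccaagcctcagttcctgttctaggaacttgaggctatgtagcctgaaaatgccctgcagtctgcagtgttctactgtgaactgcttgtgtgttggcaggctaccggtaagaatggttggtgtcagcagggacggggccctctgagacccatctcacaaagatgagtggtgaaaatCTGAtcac
SNORD22: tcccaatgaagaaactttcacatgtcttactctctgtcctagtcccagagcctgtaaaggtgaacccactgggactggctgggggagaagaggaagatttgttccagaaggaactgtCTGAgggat
SNORD27: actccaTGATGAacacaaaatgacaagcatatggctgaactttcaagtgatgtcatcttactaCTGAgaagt

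The search letters differed in frequency between the classes among members with a GENCODE sequence. Both C/D boxes were found in 43 of 63 C/D members (68.3%), against 64.2% of all 288 GENCODE C/D RNAs. They occurred in 0 of 69 H/ACA members and in 0.021% of 4693 other short RNAs. The terminal ACA was found in 63 of 69 H/ACA members (91.3%), in 89.9% of all 149 GENCODE H/ACA RNAs and in 7.18% of the other short RNAs. It also occurred in 7 of 63 C/D members (11.1%). Of 13 scaRNA members, 5 had both C/D boxes and 7 the terminal ACA. These are letter matches in a fixed window on the RNA strand. SNORD2 and SNORD22, for example, have the D box letters and not the exact C box letters. H/ACA members were longer, with a median of 134 bases (121 to 272), than C/D members, with a median of 75.5 bases (60 to 237), and scaRNA members were longer still, with a median of 265 bases.

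Of the 354 listed symbols, 74 were listed at 0 FPKM in all 4 libraries, which can also be a failed estimate for so short an RNA. Much of this came from the imprinted C/D clusters: 42 of 58 SNORD115 and SNORD116 symbols and 28 of 38 SNORD113 and SNORD114 symbols were listed at 0 throughout. Among the 160 members, 102 reached 5 FPKM in every library. The threshold was met by 147 members with the empty vector, 105 with Zeb1, 146 with Snail and 144 with Ovol2. Of the members, 8 passed through the Snail library alone and 5 through the Ovol2 library alone, and none passed through Zeb1 or the empty vector alone. Those 8 are all C/D RNAs: SNORD6, SNORD19, SNORD38B, SNORD43, SNORD52, SNORD58A, SNORD84 and SNORD87. The 5 are SNORA5B, SNORA14A, SNORA65, SNORA78 and SNORD75. A member that passed through 1 library is high there by choice, and the counts that follow include such members.

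H/ACA RNAs were lower with both mesenchymal factors and higher with Ovol2, whereas the median C/D RNA was lower with Zeb1 and close to the empty vector with Snail and Ovol2 on the deposited scale. The measure was the log2 ratio of FPKM + 1 with a factor to FPKM + 1 with the empty vector, and a difference of 2-fold or more on that scale was counted. With Zeb1, 51 of 69 H/ACA members, 33 of 76 C/D members and 3 of 15 scaRNAs were lower by 2-fold or more, 87 of 160 members together. Among all 8277 genes that met the same FPKM threshold, 10.3% were lower by this much and 4.81% were higher. SCARNA9 was the 1 member higher by 2-fold or more with Zeb1. The median log2 ratio was -1.47 for H/ACA, -0.92 for C/D and -0.67 for scaRNA members, against -0.15 for all genes. All 69 H/ACA members and 72 of 76 C/D members had a log2 ratio below 0, against 59.8% of all genes. In such bulk libraries, fewer cells with an RNA and less of it per cell cannot be told apart.

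With Snail the classes parted. Of the H/ACA members, 29 of 69 were lower by 2-fold or more, but only SNORD15A and SNORD22 of the 76 C/D members and SCARNA1 and SCARNA3 of the 15 scaRNAs were. The background share of all genes was 1.57% lower and 1.2% higher, and 0 members were higher by 2-fold or more. The median log2 ratio was -0.89 for H/ACA members, -0.003 for C/D members and -0.31 for scaRNAs, against 0.14 for all genes. The C/D members were split evenly, 38 above and 38 below 0, while 66 of 69 H/ACA members were below 0. The background was 70.1% of all genes above 0 and 29.9% below. All 8 members that passed through the Snail library alone are C/D RNAs above 0 here, which follows in part from the rule. Among members at 5 FPKM or more in all 4 libraries, 21 C/D RNAs were above 0 and 18 below, and 48 of 50 H/ACA RNAs were below. The C/D median changed sign with scaling, at 0.14 after upper quartile scaling and -0.12 after centring on well expressed genes.

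With Ovol2 the direction was the opposite for H/ACA RNAs. Of these, 20 of 69 were higher by 2-fold or more and 0 were lower, against 6 higher and 5 lower among the 76 C/D members, and SCARNA16 higher and SCARNA17 lower among the scaRNAs. Of all genes, 7.37% were higher and 28.7% lower. These counts moved with scaling: H/ACA members gave 33, 60 and 15 higher after centring, upper quartile scaling and scaling to a common total, with 0 lower in each. The C/D members gave 10 higher and 3 lower, 36 and 0, and 2 and 6 in that order. The median log2 ratio was 0.72 for H/ACA, 0.05 for C/D and 0.52 for scaRNA members, against -0.51 for all genes. The C/D median with Ovol2 changed sign with scaling, at -0.11 after scaling to a common total, 0.29 after centring and 0.98 after upper quartile scaling. The H/ACA median exceeded the C/D median by 0.67 to 0.68 under the deposited values and these 3 scalings. With Snail it lay below the C/D median by between -0.90 and -0.88, and with Zeb1 by between -0.56 and -0.52. All 3 comparisons share the empty vector library, so they are set side by side and are not independent.

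**Figure D1:**
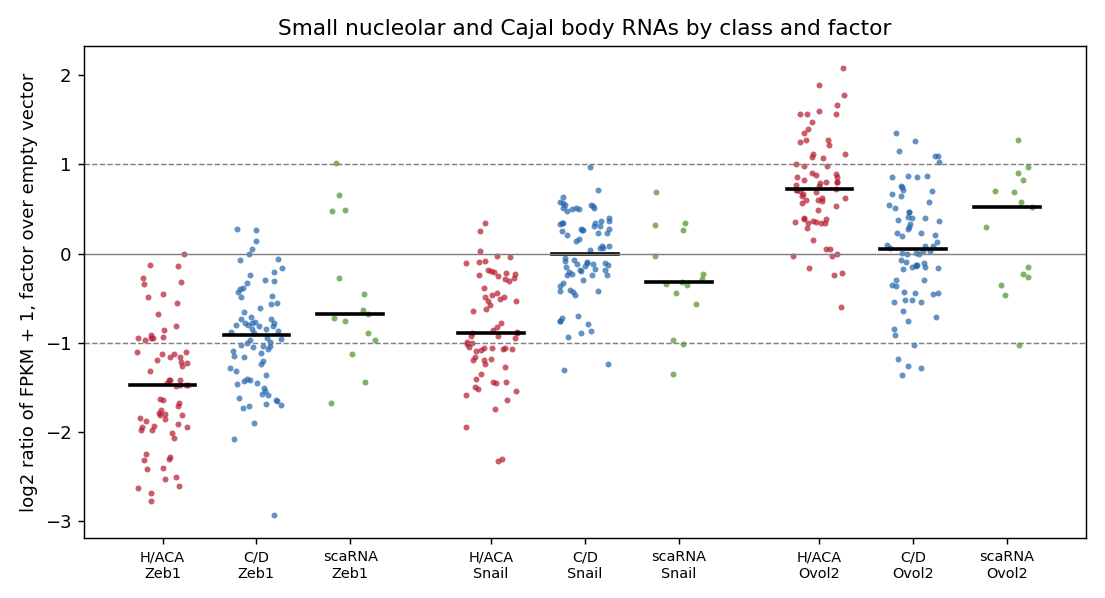
Log2 ratio of FPKM + 1 in each factor library over the empty vector library (vertical axis) for each of the 160 members, grouped by class and factor; black bars are class medians, and dashed lines mark a 2-fold difference. H/ACA points lie below 0 with Zeb1, mostly below 0 with Snail and mostly above 0 with Ovol2, at medians of -1.47, -0.89 and 0.72.

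The order of the 4 libraries also differed between the classes. Levels ran upward in the order Zeb1, Snail, empty vector, Ovol2 in 55 of 69 H/ACA members, in 22 of 76 C/D members and in 6 of 15 scaRNAs, against 13.1% of all genes. The highest of the 4 levels was that of the Ovol2 library in 62 H/ACA and 36 C/D members, against 25.6% of all genes. The Snail library held the highest level in 25 of 76 C/D members (32.9%) and in 0 H/ACA members, against 40.5% of all genes. Those 25 include, by the rule, the 8 members that passed through the Snail library alone. The Zeb1 library held the lowest level in 64 H/ACA and 59 C/D members, against 34.2% of all genes. The Ovol2 library held it in 0 H/ACA and 14 C/D members, against 57.3% of all genes. As a share of all FPKM, H/ACA members made up 2.27% with the empty vector, 0.971% with Zeb1, 1.22% with Snail and 3.13% with Ovol2. The C/D members made up 1.91%, 0.838%, 1.25% and 2.03% in the same order. The scaRNA share varied less, at 1.30%, 1.39%, 1.20% and 1.37%. Summed, however, scaRNA members were at 4858, 4046, 4302 and 7608 FPKM in that order. All FPKM came to 374267, 290694, 357476 and 555645, so a near-constant share is not a near-constant level. That total includes RMRP, at 64669 FPKM with the empty vector and 123471 FPKM with Ovol2, and RPPH1, at 27371 and 102280 FPKM.

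Among H/ACA members, SNORA63 had by far the highest level. It was at 2914 FPKM with the empty vector, 935 with Zeb1, 1392 with Snail and 7058 with Ovol2. SNORA63 was thus lowest with Zeb1 and highest with Ovol2, and its log2 ratios were -1.64, -1.07 and 1.28 for Zeb1, Snail and Ovol2. SNORA8, SNORA48, SNORA24 and SNORA71A followed on this per-length scale. SNORA8 was at 444, 203, 322 and 966 FPKM with the empty vector, Zeb1, Snail and Ovol2, and SNORA48 at 431, 161, 206 and 748 FPKM. SNORA24, a guide for 18S ribosomal RNA in the non-coding host SNHG8, was at 299, 77.5, 157 and 886 FPKM, and SNORA71A at 332, 87.6, 171 and 772 FPKM. All 5 had the same order of the 4 libraries as SNORA63. SNORA63, SNORA8, SNORA48 and SNORA24 together held 52.1% of the summed FPKM of the H/ACA members.

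The C/D class was dominated by a few long RNAs. SNORD17 was at 1919 FPKM with the empty vector, 580 with Zeb1, 1185 with Snail and 4092 with Ovol2. SNORD10 was at 1438, 445, 754 and 2286 FPKM in that order. SNORD97 was at 1179, 430, 634 and 1991 FPKM, and SNORD15B at 1496, 475, 886 and 1508 FPKM. These 4 RNAs, all longer than 120 bases, held 84.0% of the summed C/D FPKM, and 58 of the 76 C/D members averaged under 20 FPKM. SNORD17, SNORD10 and SNORD97 ran in the library order of SNORA63, while SNORD15B was almost equal with the empty vector and Ovol2, at a log2 ratio of 0.01.

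**Figure D2:**
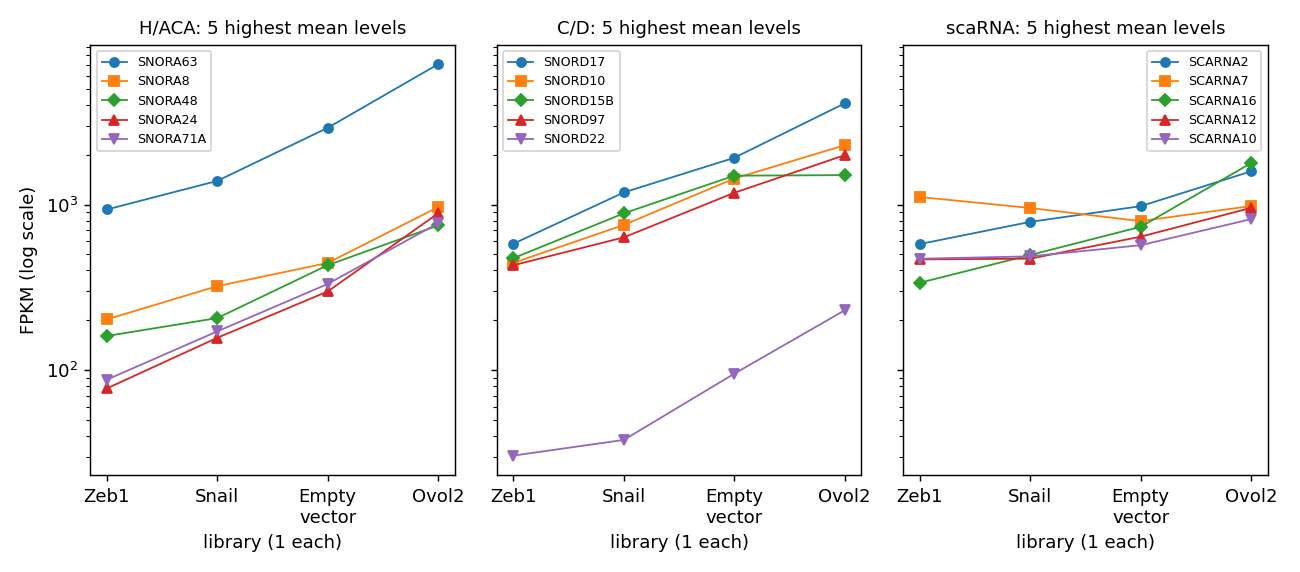
FPKM on a log axis in the 4 libraries, 1 library per group, for the 5 members of each class with the highest mean level; lines join the values of the same RNA and the order of libraries is Zeb1, Snail, empty vector, Ovol2. The 5 H/ACA and 5 C/D RNAs run upward from left to right, while SCARNA7 is highest with Zeb1, at 1112 FPKM.

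ScaRNAs, which guide modification of spliceosomal RNAs, did not move as 1 group. SCARNA2, a guide for U2 small nuclear RNA, was at 979 FPKM with the empty vector, 578 with Zeb1, 787 with Snail and 1590 with Ovol2. SCARNA16, a guide for U1, was at 735, 337, 496 and 1783 FPKM, so it too was lowest with Zeb1 and highest with Ovol2. SCARNA12 and SCARNA10, guides for U5, were at 640, 467, 472 and 956 FPKM and at 569, 471, 487 and 818 FPKM. SCARNA7, another guide for U1, differed from these, with its lowest value in the empty vector library, at 795 FPKM against 1112, 954 and 980 with Zeb1, Snail and Ovol2. SCARNA21 had its lowest value in the same library, at 313 FPKM against 493, 398 and 507.

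SCARNA9 and SCARNA17 were highest with Zeb1 and lowest with Ovol2. SCARNA9, a second guide for U2, was at 34.9 FPKM with the empty vector, 71.5 with Zeb1, 56.6 with Snail and 27.2 with Ovol2, which gave log2 ratios of 1.02, 0.68 and -0.35. SCARNA17 was at 45.8, 64.4, 57.4 and 22.0 FPKM, with log2 ratios of 0.48, 0.32 and -1.02. SCARNA9L, listed separately, was at 50.6, 26.8, 49.8 and 36.4 FPKM, so it was lowest with Zeb1. SCARNA5 and SCARNA6, which share the host ATG16L1, were near each other in their ratios to the empty vector for Zeb1 (-0.63 and -0.72) and Snail (-0.29 and -0.35) and not for Ovol2 (-0.26 and 0.97). The low scaRNAs SCARNA1, SCARNA3 and SCARNA18 had Zeb1 ratios of -1.43, -1.68 and -0.97, and Snail ratios of -1.01, -1.34 and -0.97. SCARNA22 stayed within 2-fold in all 3 comparisons, at -0.67, -0.34 and -0.22.

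The H/ACA members farthest below the empty vector with Zeb1 were SNORA76C, SNORA80B, SNORA21 and SNORA68. SNORA76C was at 35.1 FPKM with the empty vector, 4.27 with Zeb1, 14.8 with Snail and 99.1 with Ovol2, and its Zeb1 log2 ratio was -2.78. SNORA80B was at 36.2, 4.78, 6.54 and 55.3 FPKM, with log2 ratios of -2.68 for Zeb1 and -2.30 for Snail. Its near copy SNORA80A was at 121, 42.7, 64.7 and 215 FPKM, with log2 ratios of -1.47 and -0.89. Reads that fit both copies could be assigned to either, so these values are uncertain. SNORA21, in the ribosomal protein gene RPL23, was at 94.0, 14.3, 50.6 and 155 FPKM, and SNORA68 at 160, 25.5, 55.1 and 210 FPKM. Both were lowest with Zeb1 and highest with Ovol2. Nearest to the empty vector with Zeb1 were SNORA53, SNORA32, SNORA25 and SNORA28, with log2 ratios of -0.01, -0.12, -0.14 and -0.28.

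With Snail the lowest H/ACA ratios were those of SNORA47, SNORA80B, SNORA38B and SNORA76A. SNORA47 was at 13.2 FPKM with the empty vector, 2.70 with Zeb1, 1.83 with Snail and 8.41 with Ovol2. It was also the H/ACA member with the lowest Ovol2 ratio, at -0.59, and so did not share the pattern of its class there. SNORA38B was at 39.9, 9.67, 9.65 and 67.9 FPKM, and SNORA76A at 17.5, 4.50, 4.55 and 31.2 FPKM. In both, the Zeb1 and Snail libraries lay almost level. The 3 H/ACA members above 0 with Snail were SNORA5C at 0.34, SNORA65 at 0.26 and SNORA32 at 0.03. SNORA5C lies in TBRG4 with SNORA5A, whose Snail ratio was -1.41.

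With Ovol2 the highest H/ACA ratios were those of SNORA78, SNORA53, SNORA74B and SNORA32. SNORA78 met the threshold through the Ovol2 library alone, so that its rank follows in part from the rule. This RNA, which overlaps an exon of its host SNHG9, was at 2.41 FPKM with the empty vector, 0.593 with Zeb1, 1.91 with Snail and 13.4 with Ovol2. SNHG9 itself was at 8.23, 5.13, 8.12 and 49.1 FPKM, so the RNA and its host were both highest with Ovol2, and reads from the shared exon cannot be told apart. SNORA53 was at 35.2, 34.98, 30.9 and 133 FPKM, so it stood out with Ovol2 alone, at a log2 ratio of 1.89. SNORA74B was at 27.5, 10.9, 11.8 and 96.5 FPKM. SNORA32 was at 40.3, 36.8, 41.1 and 129 FPKM, close to level in the other 3 libraries. The lowest Ovol2 ratios after SNORA47 were those of SNORA45B, SNORA62 and SNORA49, at -0.24, -0.22 and -0.16.

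Among C/D members, SNORD15A, a guide for 28S ribosomal RNA in the ribosomal protein gene RPS3, was lowest with Zeb1. It was at 101 FPKM with the empty vector, 12.3 with Zeb1, 42.2 with Snail and 95.5 with Ovol2, with log2 ratios of -2.93, -1.24 and -0.08. SNORD15B of the same host was at -1.65, -0.76 and 0.01, and its level with the empty vector was 14.9 times that of SNORD15A. SNORD88B, SNORD68 and SNORD17 were the next lowest with Zeb1, at -2.08, -1.90 and -1.72. SNORD5, SNORD87, SNORD89 and SNORD50B were the 4 C/D members above 0 with Zeb1, at 0.28, 0.27, 0.14 and 0.06.

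The C/D extremes in the other comparisons included RNAs of low level. SNORD19, in the nucleolar protein gene GNL3, was at 3.42 FPKM with the empty vector, 2.16 with Zeb1, 7.63 with Snail and 0.717 with Ovol2. Its log2 ratio was the highest of the C/D members with Snail, at 0.97, and the lowest with Ovol2, at -1.36. SNORD19 and SNORD84 met the threshold through the Snail library alone, so that their high rank with Snail follows in part from the rule. SNORD84, SNORD5 and SNORD79 followed with Snail, at 0.71, 0.64 and 0.57. SNORD101, SNORD110 and SNORD1C were the next lowest with Ovol2, at -1.28, -1.26 and -1.18, from 7.49, 6.04 and 8.03 FPKM with the empty vector. The highest C/D ratios with Ovol2 were those of SNORD27, SNORD22, SNORD77 and SNORD17, at 1.35, 1.26, 1.14 and 1.09. If the annotated length is taken as it stands, 5 FPKM for an RNA of the median C/D length corresponds to between 9.11 and 13.0 fragments. The depth for this was estimated from the smallest steps of the deposited values. How transcripts shorter than a fragment were treated is not known, so the real number of fragments could be lower.

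In all, 6 RNAs differed by 2-fold or more in every one of the 3 comparisons, each lower with Zeb1 and Snail and higher with Ovol2. They were SNORA23, SNORA63, SNORA74A, SNORA74B, SNORA76C and SNORD22. SNORA23 was at 191 FPKM with the empty vector, 54.4 with Zeb1, 83.3 with Snail and 402 with Ovol2. SNORA74A was at 119, 50.5, 58.0 and 351 FPKM. SNORD22, the only C/D RNA of the 6, was at 95.1, 30.4, 37.8 and 230 FPKM. At the other end, 36 C/D and 11 H/ACA members stayed within 2-fold in all 3 comparisons. Of all genes, 15.1% differed by 2-fold or more either way with Zeb1, 2.77% with Snail and 36.1% with Ovol2. Those shares are for each comparison alone. The share of all genes under the joint rules was not computed, so the joint counts have no background beside them. Members whose 3 log2 ratios lay nearest those of SNORA63 were SNORA9 (Euclidean distance 0.09), SNORD22 (0.24) and SNORA23 (0.29). Nearest to SNORD17 were SNORA71A, SNORA71B and SNORA9, all H/ACA RNAs, at distances of 0.34 each. Nearest to SCARNA2 were SNORA18, SCARNA6 and SNORA34, at 0.10, 0.27 and 0.28.

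RNA length went with the log2 ratios within the C/D class, and mean level did so within the C/D and H/ACA classes. The C/D members were split at 100 bases, a limit chosen after the values had been seen. The 11 C/D RNAs of 100 bases or more had median log2 ratios of -1.45 with Zeb1, -0.76 with Snail and 0.67 with Ovol2, close to the H/ACA medians. The 65 C/D RNAs under 100 bases had medians of -0.85, 0.15 and -0.001. With Snail all 11 longer C/D RNAs had a ratio below 0, and 38 of the 65 shorter ones had a ratio above 0. Those 38 include the 8 members that passed through the Snail library alone. For the 7 C/D RNAs of 120 bases or more, which include SNORD17, SNORD10, SNORD97, SNORD15A, SNORD15B and SNORD22, the medians were -1.65, -0.89 and 0.75. Within the H/ACA class, Spearman's rho between length and log2 ratio was 0.02, -0.05 and 0.05 over 69 RNAs. Over the 76 C/D RNAs it was -0.38, -0.46 and 0.16. Mean FPKM went with the ratios as well, with a rho of -0.35, -0.35 and 0.61 over the C/D RNAs and of -0.33, -0.28 and 0.22 over the H/ACA RNAs. That mean is taken over the 4 libraries and holds the values that form the ratios, so the measures are not independent. The 15 scaRNAs mostly went the other way. Their rho was 0.26, 0.40 and -0.18 with length, and 0.43, 0.34 and 0.25 with mean FPKM. These describe points that share libraries and, in part, hosts.

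Since 65 of the 76 C/D members are under 100 bases and no H/ACA member is, class and length cannot be told apart for most members. Within the C/D class, the 11 longer RNAs had a median level of 62.7 FPKM and the 65 shorter ones of 8.47 FPKM. Length and level cannot be told apart among them. Levels differed between the classes too. In a band of 10 to 50 FPKM on average, also chosen after the values had been seen, 29 H/ACA members had medians of -1.48, -0.98 and 0.72, and 28 C/D members had medians of -0.90, 0.15 and 0.39. The level still differed within that band, with a median of 25.7 FPKM for H/ACA and 14.2 FPKM for C/D members, so class and level cannot be told apart there either.

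**Figure D3:**
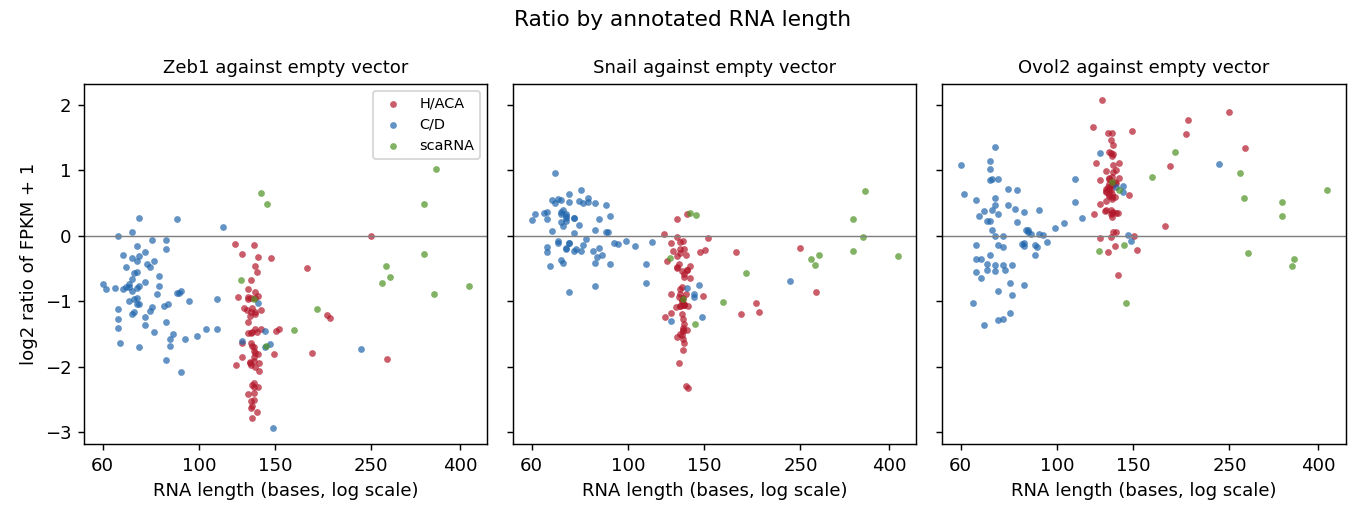
Log2 ratio of FPKM + 1, factor over empty vector (vertical axis), against annotated RNA length in bases on a log axis, for the 160 members, 1 panel per factor. C/D RNAs of 100 bases or more have medians near those of the H/ACA RNAs, at -1.45, -0.76 and 0.67. The shorter C/D RNAs have medians of -0.85, 0.15 and -0.001. SNORD89, at 114 bases, lies above 0 with Zeb1, at 0.14, unlike any H/ACA RNA.

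Other short structured RNAs that are transcribed from their own promoters were set beside the members. Of 8 such RNAs that met the FPKM threshold, 6 were lower by 2-fold or more with Zeb1 and 1 with Snail, and 2 were higher with Ovol2, with median log2 ratios of -1.21, -0.56 and 0.88. Of all genes, 10.3% were lower with Zeb1, 1.57% lower with Snail and 7.37% higher with Ovol2, with medians of -0.15, 0.14 and -0.51. Telomerase RNA (TERC), itself an H/ACA RNA, was at 315 FPKM with the empty vector, 151 with Zeb1, 254 with Snail and 562 with Ovol2, the library order of SNORA63. RNU4ATAC, a small nuclear RNA of the minor spliceosome, was at 15.5, 2.70, 7.33 and 15.7 FPKM. RMRP, the RNA of RNase MRP, had the highest level of these on the per-length scale, at 64669, 39558, 46632 and 123471 FPKM. Of the 8 RNAs, 7 were highest with Ovol2 and 6 lowest with Zeb1. RPPH1, the RNA of RNase P, was at 27371, 24608, 20099 and 102280 FPKM, lowest with Snail, and RNU6ATAC was at 12.5, 3.96, 3.67 and 10.4 FPKM, lowest with Snail and highest with the empty vector. Whether the member values share a shift with these RNAs was not tested.

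The log2 ratios of H/ACA RNAs differed from those of their hosts. By GENCODE and RefSeq positions, 158 of the 160 members lie inside another gene, 146 of them wholly in an intron, and 154 have a host listed in the tables, 90 hosts in all. Of the members, 39 lie in genes of ribosomal proteins. The remaining 2, SNORA22 and SNORA7B, had no host. Pairs were compared where the host met the same FPKM threshold. Among these H/ACA members, the log2 ratio of the RNA minus that of its host had a median of -0.69 with Zeb1, -0.86 with Snail and 0.86 with Ovol2, over 56 RNAs in 40 hosts. For C/D RNAs under 100 bases the medians were -0.23, -0.09 and 0.08, over 59 RNAs in 27 hosts. For the 10 longer C/D RNAs they were -1.04, -0.88 and 1.11. With Snail, 54 of the 56 H/ACA RNAs lay below their host, and with Ovol2, 47 lay above it. With every host in the tables, low hosts included, a setting added after seeing the data, the H/ACA medians were -0.84, -0.88 and 0.99 over 66 RNAs in 46 hosts, and those of the C/D RNAs under 100 bases were -0.26, -0.14 and 0.03 over 63 RNAs. The median level of the RNA over that of its host with the empty vector, both in FPKM, was 0.526 for H/ACA RNAs (0.947 with every host), 0.0843 for the shorter C/D RNAs and 2.34 for the longer ones.

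**Figure D4:**
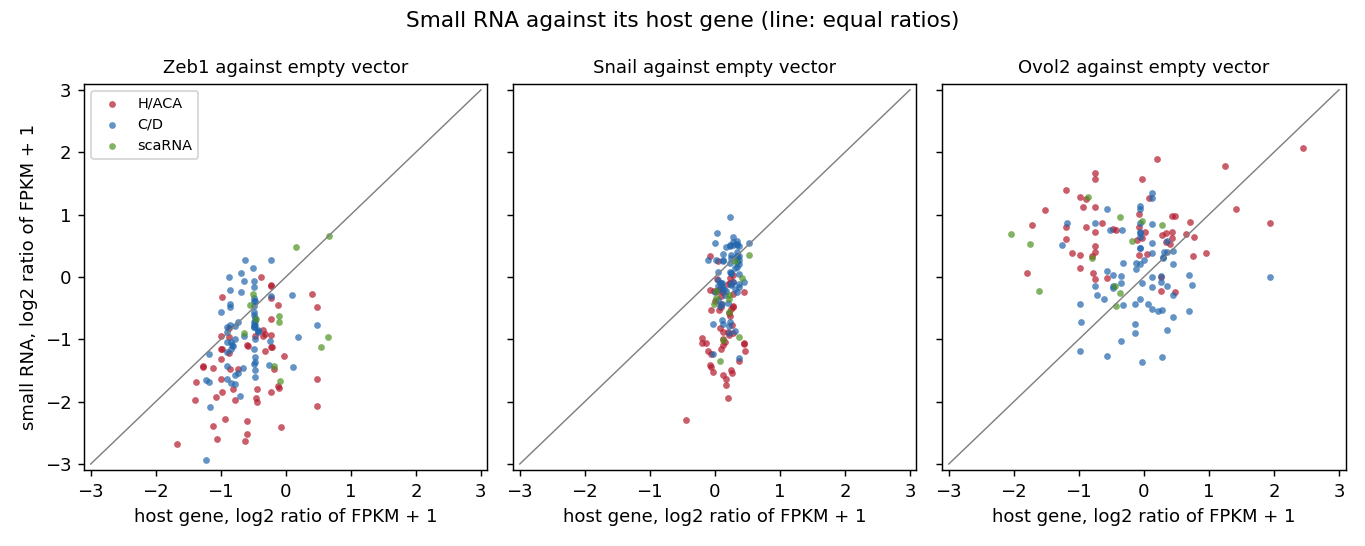
Log2 ratio of FPKM + 1, factor over empty vector, of each small RNA (vertical axis) against that of its host gene (horizontal axis), 1 panel per factor, for hosts at 5 FPKM or more in at least 1 library; the line marks equal ratios. H/ACA RNAs lie mostly below the line with Zeb1 and Snail and above it with Ovol2, at median differences of -0.69, -0.86 and 0.86.

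EIF4A2 shows the separation within 1 gene. The host was at 142 FPKM with the empty vector, 199 with Zeb1, 195 with Snail and 71.8 with Ovol2. It was thus highest where SNORA63 was lowest and lowest where SNORA63 was highest. The Zeb1 library was the highest for 21.7% of all genes, and the Ovol2 library the lowest for 57.3%. SNORA4 of the same gene was at 132, 30.6, 62.0 and 167 FPKM, in the order of SNORA63. SNORA81 was at 23.4, 16.4, 19.7 and 26.1 FPKM, a narrower range in the same order. The short C/D RNA SNORD2 was at 36.8, 21.1, 34.9 and 27.1 FPKM, and was not highest with Ovol2. Its log2 ratio minus that of the host was -1.26, -0.53 and 0.55 for Zeb1, Snail and Ovol2. The same difference was -2.12, -1.52 and 2.25 for SNORA63, so both lay on the same side of the host at different distances. For SNORA81 it was -0.97, -0.69 and 1.13.

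TAF1D, a subunit gene of an RNA polymerase I factor, holds 6 H/ACA and 2 C/D members. It was at 21.4 FPKM with the empty vector, 18.1 with Zeb1, 26.3 with Snail and 12.2 with Ovol2. All 6 of its H/ACA RNAs were highest with Ovol2: SNORA25 was at 23.1, 20.9, 21.8 and 70.6 FPKM and SNORA40 at 61.0, 16.2, 32.4 and 86.1 FPKM. With Zeb1, however, these 2 differed, at log2 ratios of -0.14 and -1.85. Of the C/D RNAs, SNORD5 was at 9.33, 11.5, 15.04 and 17.8 FPKM, and SNORD6 at 3.70, 2.81, 5.71 and 3.26 FPKM. Both C/D RNAs were above the empty vector with Snail, where 5 of the 6 H/ACA RNAs were below it. SNORD6 met the threshold through the Snail library alone, however, so its place there follows in part from the rule.

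SNHG1, a non-coding host, holds 8 C/D members and no H/ACA member. It was at 30.7 FPKM with the empty vector, 21.8 with Zeb1, 39.8 with Snail and 33.7 with Ovol2. SNORD22, at 126 bases the longest of the 8, was lower with Snail by 1.31 on the log2 scale and 3.09 times as high as its host with the empty vector. The other 7, between 65 and 75 bases, were at 16.6 FPKM or less with Snail, and their Snail log2 ratios ran from -0.17 for SNORD29 to 0.50 for SNORD31. SNORD27 was at 8.22, 6.03, 10.6 and 22.6 FPKM, so it was the 1 short RNA of this host higher by 2-fold or more with Ovol2.

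**Figure D5:**
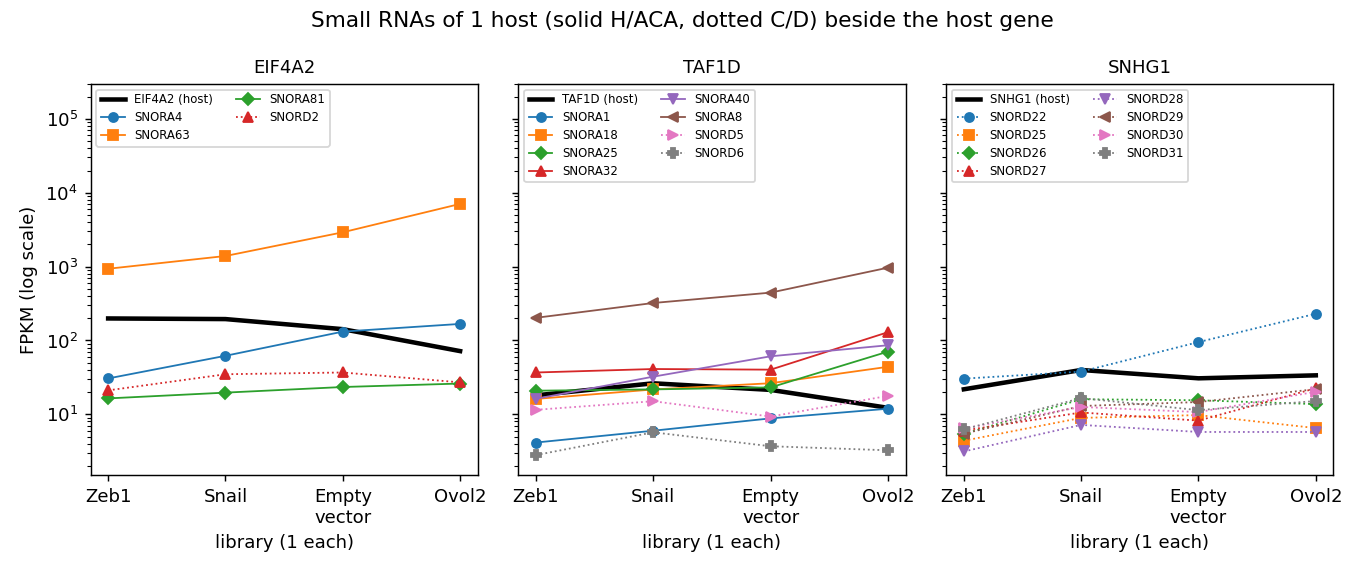
FPKM on a log axis in the 4 libraries, 1 library per group, for the small RNAs of 3 hosts (thin lines, solid for H/ACA and dotted for C/D) and the host gene (thick black line). In EIF4A2 the host is highest with Zeb1, at 199 FPKM, and SNORA63 lowest there, at 935 FPKM.

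GAS5, a non-coding gene whose spliced product is otherwise short-lived in growing cells, was the host with the most members, 10 C/D RNAs of 60 to 81 bases. The host was at 151 FPKM with the empty vector, 107 with Zeb1, 191 with Snail and 145 with Ovol2. SNORD47 and SNORD76 had the highest levels of the 10. SNORD47 was at 26.0, 11.2, 29.2 and 36.4 FPKM, and SNORD76 at 24.7, 14.1, 35.7 and 40.9 FPKM. SNORD80 was at 17.4, 11.4, 23.3 and 32.5 FPKM, SNORD79 at 13.5, 8.55, 20.6 and 15.8 FPKM, and SNORD44 at 12.7, 6.84, 16.4 and 20.4 FPKM. These 5 were lowest with Zeb1 and above the empty vector with Snail. SNORD78 was at 11.3, 3.67, 9.46 and 8.63 FPKM, the 1 RNA of the 10 that was highest with the empty vector. SNORD81, SNORD77, SNORD74 and SNORD75 were at 8.84, 7.45, 5.80 and 3.56 FPKM with the empty vector and at 15.2, 17.7, 8.39 and 8.70 FPKM with Ovol2. All 10 had a Zeb1 log2 ratio below 0, from -1.40 to -0.33, against -0.49 for GAS5 itself.

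Hosts listed at low values were left out of the medians over hosts at the threshold. RPL13A, which holds SNORD32A, SNORD33, SNORD34 and SNORD35A, is a ribosomal protein gene that cells use widely, yet it is listed, perhaps through a failed estimate, at 0.0254 FPKM with the empty vector at 0 with Zeb1 and Snail and at 0.207 FPKM with Ovol2. Its 4 RNAs were between 11.6 and 54.4 FPKM with the empty vector. SNORA48, SNORA67 and SNORD10 were paired with the read-through gene SENP3-EIF4A1, at 0.457 FPKM with the empty vector. These RNAs enter only the medians with every host in the tables. The 12 members that overlap a host exon, SNORA78 and SNORA76C among them, share reads with the spliced host. Near copies add to the uncertainty: apart from SNORA80A and SNORA80B, an identity of 80% or more was found for SNORA14A with SNORA14B (91.1%), SNORA5A with SNORA5B (89.6%), SNORA38 with SNORA38B (85.1%), SNORD45A with SNORD45C (84.5%) and within SNORA71A, SNORA71C and SNORA71D (83.1% to 86.6%). These pairs could still differ in their ratios, as SNORA5A and SNORA5B did with Snail, at -1.41 and -0.21.

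The RNA of genes for the core proteins that bind these small RNAs was lower with Zeb1 and close to level with Snail. No protein was measured. Of the 4 genes for box C/D core proteins, 2 were lower by 2-fold or more with Zeb1 and 0 with Snail. Of all genes, 10.3% were lower by as much with Zeb1 and 1.57% with Snail. The median log2 ratio of the 4 genes was -1.09 with Zeb1 and 0.07 with Snail. Fibrillarin (FBL), the methyltransferase, was at 106 FPKM with the empty vector, 32.5 with Zeb1, 98.0 with Snail and 67.6 with Ovol2. NOP56 was at 45.9, 19.7, 49.97 and 30.8 FPKM, NOP58 at 29.4, 14.3, 32.1 and 14.6 FPKM, and NHP2L1 at 37.8, 19.7, 38.1 and 54.3 FPKM. All 4 were lowest with Zeb1, and NOP58 was almost as low with Ovol2.

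Of the 4 genes for H/ACA core proteins, 2 were lower by 2-fold or more with Zeb1 and 1 with Ovol2. Of all genes, 10.3% were lower by as much with Zeb1 and 28.7% with Ovol2. Dyskerin (DKC1), the pseudouridine synthase, was at 21.5 FPKM with the empty vector, 9.04 with Zeb1, 27.1 with Snail and 7.53 with Ovol2. It was thus lowest in the library where most H/ACA RNAs were highest. That library was also the lowest for 57.3% of all genes, so this place of DKC1 is a common one. NHP2 was at 64.6, 22.6, 67.0 and 71.6 FPKM, NOP10 at 90.4, 63.3, 95.6 and 148 FPKM, and GAR1 at 4.18, 2.73, 5.25 and 3.39 FPKM. With Snail, 29 of 69 H/ACA RNAs were lower by 2-fold or more. All 4 H/ACA core protein genes were slightly above the empty vector there, at log2 ratios from 0.05 to 0.32. All genes had a median of 0.14 with Snail and 70.1% of them lay above 0, so these 4 values are near the background.

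Assembly and Cajal body factors gave 3 of 14 lower with Zeb1, 0 with Snail and 5 with Ovol2, with medians of -0.58, 0.24 and -0.74. Of all genes, 10.3% were lower by as much with Zeb1 and 28.7% with Ovol2, so the share with Ovol2 is near the background. RUVBL1, an ATPase of snoRNP assembly, was at 33.4, 15.2, 35.9 and 28.9 FPKM with the empty vector, Zeb1, Snail and Ovol2. NOLC1, a chaperone that moves between nucleolus and Cajal body, was at 27.0, 11.3, 34.4 and 9.68 FPKM, so it was low with both Zeb1 and Ovol2. Coilin (COIL), the scaffold of Cajal bodies, was at 5.35, 6.39, 6.99 and 3.97 FPKM. Of 14 non-coding snoRNA hosts, 3 were lower with Zeb1 and 1, SNHG9, was higher with Ovol2, with medians of -0.66, 0.23 and 0.03. Of all genes, 7.37% were higher by 2-fold or more with Ovol2, so the host count there is near the background.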

How the data were processed

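RNA was measured by sequencing in 4 libraries, 1 per group, made from column-purified total RNA with an Illumina TruSeq RNA v2 kit, per the labels' protocols. The authors deposited 3 tables, each with the empty vector library beside 1 factor library, and the deposited values were read as FPKM, since TopHat, Cufflinks and Cuffdiff on hg19 stand in the submitters' processing notes. That kit selects polyadenylated RNA, and most mature small nucleolar RNAs have no poly(A) tail, so these levels need not be those of the mature RNA. The headers name no unit. Software versions, the gene annotation and the treatment of transcripts shorter than a fragment are not given in the sources used here. That treatment can raise the FPKM of a short RNA or set it to 0, so levels of RNAs of 60 to 420 bases are compared with that limit. All 3 tables hold identical values for the empty vector.

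Repeated symbols were summed. Each gene's log2 ratio was taken with a pseudocount of 1 FPKM, which understates the difference of low genes, and a 2-fold rule stood in for a test, since no group had replicates. The deposited p-values of 1 library against 1 library were not used. Depth, estimated from the smallest steps of the deposited FPKM values, was between 24100000 and 34300000 fragments, and between 4.78% and 11.1% of the small RNA values above 0 lay under the value of 1 fragment at the annotated length.

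Length, sequence and host came from GENCODE 29 and, for 15 members, from the RefSeq table, both on GRCh38. In GENCODE, 140 members matched by symbol and 5 by an older symbol. The RefSeq table holds no strand, so hosts of those 15 were taken on either strand. The sequences of some RNAs are not reported here. Identity between members came from global alignment in Biopython 1.88. Python 3.11.15, pandas 2.3.3, numpy 2.4.6 and matplotlib 3.10.9 were used, and the calling steps were tested on simulated data.

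Named RNAs were the 5 highest mean levels per class, the 4 highest and 4 lowest log2 ratios per class and comparison, all scaRNAs, members past 2-fold in all 3 comparisons, members of the host with the most members, those nearest the threshold, and the 3 members most like the highest of each class. Further RNAs were chosen after seeing values, to show shared hosts, near copies and small counts. Members, lists, length limits and level bands were chosen with earlier results of these data known. The alternatives were other pseudocounts, thresholds and scalings, and sets of members.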

Additional observations from a re-analysis of the deposited data

How the results depend on the processing

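Over 12 results and 11 alternatives, 89 values kept within 0.1 log2 (medians) or 1.5 times (counts) and 43 moved further; the 0.1 limit was chosen after the values were seen, as no replicates give a spread. No paired analysis was possible because each group held 1 library and no result came from a test. Main values were 1 higher and 87 lower with Zeb1, 0 and 33 with Snail, and 27 and 6 with Ovol2, with medians as in the report. Keeping the highest of repeated symbols changed none of the 12. A pseudocount of 0.1 FPKM gave Zeb1 medians of -1.66 (H/ACA) and -1.04 (C/D) and 1 member higher with Snail, and a pseudocount of 5 FPKM gave -1.16 and -0.64, 0 members higher with Zeb1 and 0 lower with Ovol2. Centring on well expressed genes, a shift of -0.25, 0.11 and -0.24 for Zeb1, Snail and Ovol2, gave H/ACA medians of -1.23, -1.01 and 0.96, C/D medians of -0.67, -0.12 and 0.29, and 47 members higher and 3 lower with Ovol2. Upper quartile scaling gave H/ACA medians of -1.28, -0.74 and 1.66, C/D medians of -0.75, 0.14 and 0.98, 1 member higher with Snail, and 105 higher and 0 lower with Ovol2. A common total without RMRP, RPPH1 and the members gave medians of -1.22 (H/ACA) and -0.69 (C/D) with Zeb1 and 0.56 and -0.11 with Ovol2. Without a filter on low values, H/ACA medians were -1.14, -0.56 and 0.61, the Zeb1 C/D median was -0.50, 3 members were higher with Zeb1 and 14 lower with Ovol2. A threshold of 20 FPKM gave Zeb1 medians of -1.66 (H/ACA) and -1.04 (C/D), C/D medians of -0.17 with Snail and 0.55 with Ovol2, and 1 member lower with Ovol2. Among alternatives added after seeing the data, members at 5 FPKM or more in all 4 libraries gave 56 lower with Zeb1, 1 lower with Ovol2 and an Ovol2 C/D median of 0.38, and leaving out scaRNAs gave 0 higher with Zeb1. Leaving out members with exon overlap or a near copy moved none of the 12. The H/ACA medians kept their sign under all 11 alternatives in every comparison, and so did the C/D median with Zeb1. The cause of the moves was not tested, beyond the smaller or larger sets of members that the thresholds make by construction. Depth limits the shorter C/D RNAs most.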
